A study of Mus musculus with 24 samples.

Results

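Maturation of the wild-type mouse thyroid between 4 weeks (W4) and 12 weeks (W12) of age was described as the difference between 4 glands of each age. The members were chosen from the sample labels alone, as the arrays of wild-type W4 and W12 mice, and make up 8 of the 24 arrays of the series. The other 16 arrays hold wild-type glands at 2 weeks (W2) and glands of mice without Xb130 at all 3 ages, 4 mice per group. Each array measured total RNA of the whole thyroid of a single male mouse on an Affymetrix Mouse Gene 2.0 ST chip. Wild-type mice carried both normal copies of Xb130 (Xb130+/+), received no treatment and were the controls of the series, and the older age is given in the labels as 3 months. Of 25206 probe sets, 23185 have a gene symbol and are called genes here. Levels are log2 values, so that a difference of 1 is a 2-fold difference. W4 mice 1 to 4 and W12 mice 1 to 4 are numbered in the order of deposit, which pairs no mice.

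The thyroid is built of follicles, in which thyrocytes take up iodide, make thyroglobulin and couple iodinated tyrosines into thyroid hormone under the control of thyrotropin (TSH). The hydrogen peroxide that iodination needs comes from the dual oxidases and their maturation factors. Thyrocytes divide in the growing animal and seldom in the adult, and each follicle rests on a basement membrane and is wrapped in a dense capillary net and a collagen-rich stroma.

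The 8 arrays were alike in distribution, with medians between 7.10 and 7.15, and correlated across genes with r of 0.992 to 0.995 within W4, 0.994 to 0.995 within W12 and 0.987 to 0.994 between the ages. Afap1l2, the gene that encodes XB130 and is targeted in the knockout mice, was measured at 10.92, 10.56, 10.79 and 10.41 in the W4 mice and at 10.64, 10.65, 10.70 and 10.80 in the W12 mice, with no change passing the test (log2 change 0.03, SE 0.11, adjusted p = 0.916). Whole glands also carry neighbouring tissue. The mean over 12 thymocyte markers was 6.64 in W4 mouse 4 and 5.92 to 6.09 in the other 7 mice, and the mean over 18 skeletal muscle markers was 6.56 in W4 mouse 1 and 8.33 to 10.33 in the others. Of 12 thymocyte and 18 skeletal muscle markers 0 passed the limma test between the ages, and 0 had an unadjusted p under 0.05, where 23.8% of all genes did. That test took its spread from all 24 arrays. In the knockout W12 group the thymocyte mean ran from 5.93 to 9.70 and the muscle mean from 8.67 to 11.51. With such a spread, the counts cannot show that neighbouring tissue was alike at both ages. In a whole gland, fewer cells of a type and less RNA per cell cannot be told apart.

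From W4 to W12, 2347 of 23185 genes changed at an adjusted p under 0.05 (10.1%, limma over all 24 arrays with Benjamini-Hochberg adjustment), of which 1257 were higher (5.42%) and 1090 lower (4.7%) at W12. Most changes were small. A called change had a median size of 0.36, and 27 genes rose (0.116%) and 65 fell (0.28%) by at least 2-fold. The median change of all genes was 0.01, with quartiles of -0.10 and 0.13. The values of the 4 W12 mice lay completely apart from those of the 4 W4 mice for 3850 genes (16.6%), 1997 higher (8.61%) and 1853 lower (7.99%). The counts depended on single mice. They were 1221 without W4 mouse 4 (598 higher, 623 lower), 1438 without W12 mouse 3 (729 higher, 709 lower) and 1574 without W12 mouse 4 (899 higher, 675 lower), and 982 genes (41.8% of the 2347) passed whichever of the 8 mice was left out. Higher genes made up 53.6% of the calls, and 41.8% when each array was shifted to the same median (868 higher, 1209 lower).

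**Figure D1:**
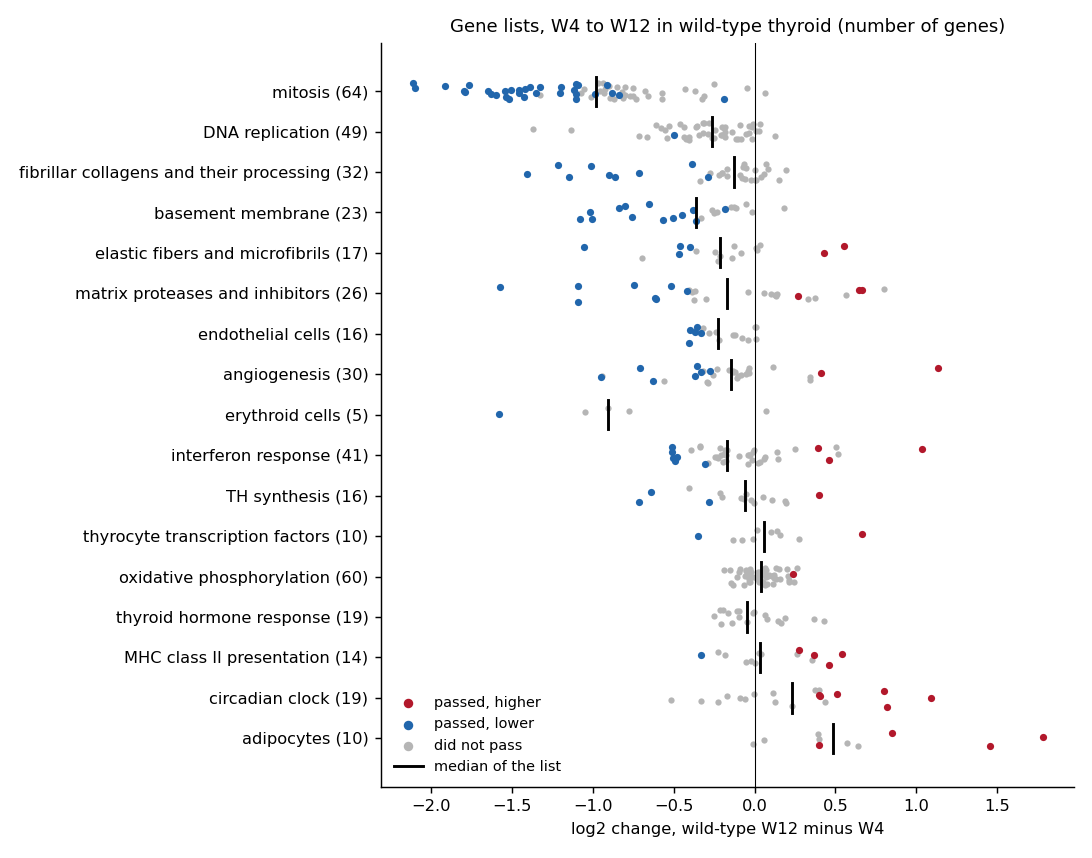
Log2 change from W4 to W12 (horizontal) of every measured gene (points) in 17 gene lists, coloured where the gene passed the test, with the median of each list (bar). Mitosis lies lowest with a median of -0.98, the 5 red cell genes lie at -0.91, basement membrane at -0.36 and adipocyte markers at 0.48.

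Among the process lists, mitosis had the lowest median change. Of 64 measured members 32 fell and 0 rose, beside a background of 4.7% of genes lower, and 63 of 64 had a negative change. The list's median change was -0.98 where that of all genes was 0.01. For 57 members every W12 value lay under every W4 value, where this held for 7.99% of all genes. The promoters of 4 members are shown because the mitotic genes fell together and many of them are known to carry the same short elements, the CCAAT box bound by NF-Y and the cell cycle homology region bound by the DREAM and MuvB complexes. Each line holds the 120 bases before the RefSeq transcription start, written 5′ to 3′ on the gene's own strand. The 4 genes are among the most decreased members with a single promoter in the table. The stretches lie on the minus strand of build GRCm38.p6, Top2a at chr11:99024190-99024309, Mki67 at chr7:135716380-135716499, Cdk1 at chr10:69352913-69353032 and Kif23 at chr9:61946800-61946919. Capitals mark CCAAT or its reverse complement ATTGG, as well as the homology region letters TTTGAA on either strand (reading TTCAAA on the other) and the palindromic variant TTCGAA.
Top2a: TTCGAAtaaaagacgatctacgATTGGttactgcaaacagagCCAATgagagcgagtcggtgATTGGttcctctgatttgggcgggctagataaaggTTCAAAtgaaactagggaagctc
Mki67: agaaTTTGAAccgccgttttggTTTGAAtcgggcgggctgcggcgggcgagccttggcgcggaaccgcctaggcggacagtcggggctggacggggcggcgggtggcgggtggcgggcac
Cdk1: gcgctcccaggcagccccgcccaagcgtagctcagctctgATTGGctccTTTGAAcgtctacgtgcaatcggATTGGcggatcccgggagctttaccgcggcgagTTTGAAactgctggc
Kif23: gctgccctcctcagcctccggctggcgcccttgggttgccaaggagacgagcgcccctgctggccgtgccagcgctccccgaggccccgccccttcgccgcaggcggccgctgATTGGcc
Top2a held 3 CCAAT or ATTGG matches and 2 of the cell cycle homology letters, Cdk1 held 2 and 2, Mki67 held 0 and 2, and Kif23 held 1 and 0. Over the 250 bases before the start, searched on both strands, CCAAT or ATTGG occurred in 39 of 58 promoters of the list (67.2%, of 53 matched genes) and in 33.8% of all 32851 promoters of the table. The homology region letters occurred in 23 of the 58 (39.7%) and in 17.1% of all. Among the 32 members that fell, 28 genes with 31 promoters were matched, of which 24 held CCAAT or ATTGG (77.4%) and 13 the other letters (41.9%). A high share of CCAAT or ATTGG was not particular to genes that fell. It was 63.6% of 22 promoters for the clock genes, of which 6 rose and 0 fell. For DNA replication it was 53.2% of 47 promoters, for fibrillar collagens 27.3% of 22 and for basement membrane 31.6% of 19. These are matches of letters in a window, not sites of binding.

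Ccna2, the cyclin that drives S phase and entry into mitosis, was measured at 9.06, 9.58, 8.90 and 10.32 in the W4 mice and at 7.24, 7.66, 7.54 and 6.96 in the W12 mice. All W12 values lay under the lowest W4 value, and W4 mouse 4 was the highest of all. Ccna2 fell by a factor of 4.33 (log2 change -2.11, SE 0.47, adjusted p = 0.00727). Its mean was 9.47 ± 1.12 at W2 (SD, n = 4), 9.46 ± 0.64 at W4 and 7.35 ± 0.31 at W12.

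Cdk1, the kinase of mitotic entry, stood at 9.24, 9.34, 9.02 and 10.18 in the W4 mice and at 7.57, 7.77, 7.77 and 7.49 in the W12 mice. Again the ages did not overlap and W4 mouse 4 was highest, and the change was -1.79 (SE 0.35, adjusted p = 0.00284). Top2a, the topoisomerase that untangles sister chromatids, changed by -2.10 (SE 0.46, adjusted p = 0.00662), with W4 values of 8.27, 8.54, 7.90 and 9.51 and W12 values of 6.22, 7.004, 6.501 and 6.09. Mki67, the marker of dividing cells, read 9.28, 9.42, 8.90 and 10.53 at W4 and 7.52, 8.001, 7.70 and 7.25 at W12, a fall by a factor of 3.77 (adjusted p = 0.00742). In all 4 genes the lowest W4 value belonged to W4 mouse 3. The mitotic kinase gene Pbk (log2 change -1.79, adjusted p = 0.00928), the central spindle motor gene Kif23 (-1.76, 0.00466) and the kinetochore gene Knstrn (-1.61, 0.00596) fell too, and these 7 genes passed whichever mouse was left out. Esco2, the cohesin acetyltransferase gene, changed by -1.70 (adjusted p = 0.0181), which became 0.0818 without W4 mouse 4 and 0.0599 without W12 mouse 4, in a range of 0.00987 to 0.0818 over all alternatives. Ndc80, of the outer kinetochore, changed by -1.63 (adjusted p = 0.0137), which became 0.0629 without W4 mouse 4 and 0.0525 without W12 mouse 3, in a range of 0.00754 to 0.0629. The calls of the spindle motor gene Kif11 (-1.60, adjusted p = 0.0245) and the checkpoint kinase gene Bub1 (-1.65, 0.0383) did not hold in most fits that left out a mouse. The adjusted p of Kif11 became 0.0504 without W4 mouse 2, 0.0987 without W4 mouse 4, 0.0581 without W12 mouse 1, 0.0503 without W12 mouse 3 and 0.0563 without W12 mouse 4, in a range of 0.0103 to 0.0987, and that of Bub1 0.0567 without W4 mouse 1, 0.0765 without W4 mouse 2, 0.133 without W4 mouse 4, 0.0803 without W12 mouse 1, 0.0711 without W12 mouse 2, 0.0657 without W12 mouse 3 and 0.0778 without W12 mouse 4, in a range of 0.0129 to 0.133.

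**Figure D2:**
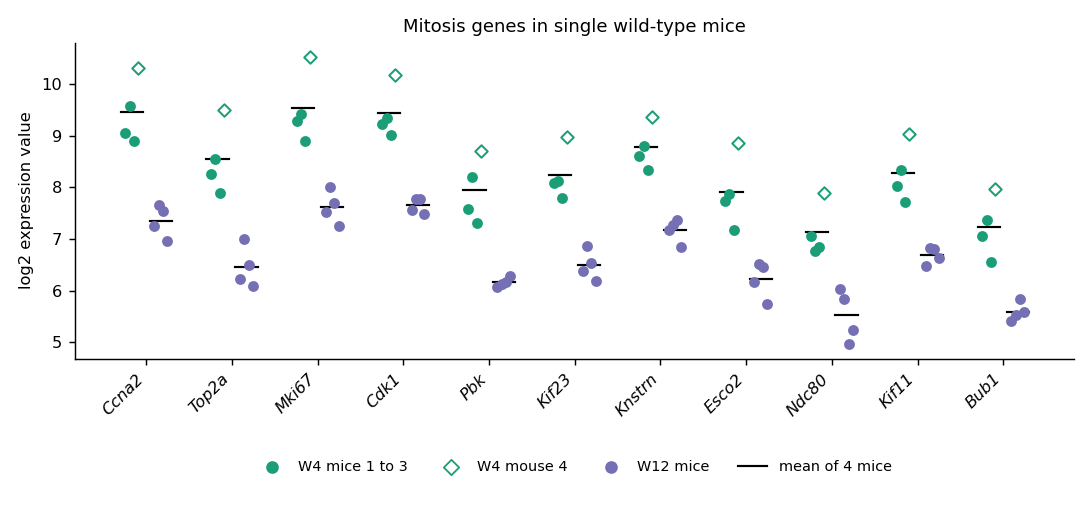
Log2 level (vertical) of 11 mitotic genes in each wild-type mouse at W4 (green, open diamond for W4 mouse 4) and W12 (purple), with a line at the mean of 4 mice. W4 mouse 4 is the highest mouse in each gene, and every W12 mouse lies under every W4 mouse.

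How many mitotic genes passed depended on the arrays in the fit. The count of 32 became 17 without W4 mouse 2, 9 without W4 mouse 4, 18 without W12 mouse 1, 17 without W12 mouse 3 and 11 without W12 mouse 4, and it was 50 when the 8 wild-type arrays were fitted alone and 46 when W4 mouse 4 was also left out of that fit. The list mean was 7.45, 7.61, 7.30 and 8.20 in W4 mice 1 to 4 and 6.54, 6.72, 6.65 and 6.45 in W12 mice 1 to 4, so that the ages stayed apart without W4 mouse 4, where the list's median change was -0.80. W4 mouse 4 also had the highest thymocyte mean, and the part of those cells in its value was not tested. The licensing and replication genes moved less. Of 49 measured genes of DNA replication 1 fell and 0 rose (2.04%, where 10.1% of all genes passed). Their median was -0.26, with 45 negative changes. For 24 every W12 value lay under every W4 value, where this held for 7.99% of all genes. The count of 1 became 11 when the 8 wild-type arrays were fitted alone, 7 when W4 mouse 4 was also left out of that fit and 0 without W4 mouse 4 or W12 mouse 3 among all arrays, and it was 2 without W4 mouse 3 or W12 mouse 4 and 4 with array weights. The gene that fell was Mcm6, a subunit of the replicative helicase (log2 change -0.49, SE 0.13, adjusted p = 0.0162), whose adjusted p was 0.0737 without W4 mouse 4 and 0.0519 without W12 mouse 3, in a range of 0.00682 to 0.0737 over all alternatives. Of 8 cyclin-dependent kinase inhibitors 0 passed limma's test, and 2 had an unadjusted p under 0.05, as did 23.8% of all genes.

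The extracellular matrix was the other large group that fell. Of 32 genes of fibrillar collagens and their processing 9 fell and 0 rose (28.1%, where 10.1% of all genes passed). Their median was -0.13, and between 8 and 10 passed whichever mouse was left out. Col3a1, the chain of type III collagen, was measured at 9.96, 9.87, 9.84 and 10.31 in the W4 mice and at 8.52, 8.91, 8.49 and 8.42 in the W12 mice. The W4 values lay close together, the W12 values were all lower, and the change was -1.41 (SE 0.16, adjusted p = 0.000101), a factor of 2.65. The type I chain Col1a1 read 10.51, 10.59, 10.49 and 11.14 at W4 and 9.51, 9.72, 9.27 and 9.37 at W12. W4 mouse 4 was well over the other W4 mice, which themselves lay over all W12 mice, and the fall was by a factor of 2.32 (adjusted p = 0.000391). Col1a2, the partner chain, changed by -1.15 (adjusted p = 0.000377). Lox, the enzyme that crosslinks collagen and elastin, changed by -1.01 (0.00347) and Col5a1, a chain that sets fibril diameter, by -0.90 (0.000391). Col3a1, Col1a1 and Col1a2 are also fibroblast markers. Of 13 such markers 3 fell and 1 rose (30.8%), and the 3 that fell are these same collagens, so the count adds no separate marker. Negative changes were found in 10 of the 13, with a median of -0.16.

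The basement membrane had the larger share of changed genes. Of 23 measured members 13 fell and 0 rose (56.5%, where 10.1% of all genes passed). The median was -0.36, 22 of 23 had a negative change, and 10 to 14 passed whichever mouse was left out. Col4a1, of the type IV collagen network, was measured at 9.85, 9.31, 9.86 and 10.16 in the W4 mice and at 8.70, 8.83, 8.72 and 8.62 in the W12 mice. W4 mouse 2 was the lowest W4 mouse and still lay over every W12 mouse (log2 change -1.08, SE 0.17, adjusted p = 0.000543). Lamc1, the gamma chain shared by most laminins, stood at 10.98, 10.93, 10.94 and 11.50 in the W4 mice and at 10.25, 10.43, 10.09 and 10.25 in the W12 mice. The ages did not overlap, W4 mouse 4 was highest, and the change was -0.84 (SE 0.14, adjusted p = 0.000933). Col4a2 changed by -1.005 (adjusted p = 0.0003), Col15a1, of the zone between basement membrane and stroma, by -1.02 (0.00105), and the vascular laminin chain Lama4 by -0.80 (0.00845). Lama4 had an adjusted p of 0.068 when all arrays with thymocyte transcripts were left out, in a range of 0.00535 to 0.068 over all alternatives.

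Elastic fibers, proteoglycans and proteases held genes that moved both ways. Eln, the elastin gene, was measured at 8.41, 8.52, 8.49 and 9.39 in the W4 mice and at 7.70, 7.83, 7.53 and 7.54 in the W12 mice. W4 mouse 4 stood apart over the other W4 mice, all 4 lay over the W12 mice, and the change was -1.05 (SE 0.22, adjusted p = 0.00459). Of 17 elastic fiber genes 4 fell and 2 rose (35.3%, where 10.1% of all genes passed). The total of 6 was 2 without W4 mouse 4 and 3 without W12 mouse 1 or W12 mouse 3. Of 34 proteoglycan and matricellular genes 9 fell and 2 rose (32.4%). The total of 11 was 4 without W4 mouse 4 and 5 without W12 mouse 3. Among these genes Fn1, fibronectin, changed by -0.66 (adjusted p = 0.00442) and the small proteoglycan gene Prelp by -0.57 (0.000386). Spon1, the matricellular protein spondin 1, rose from 10.08, 9.88, 9.83 and 10.46 at W4 to 10.55, 10.68, 11.13 and 10.67 at W12 in mouse order, without overlap (log2 change 0.69, adjusted p = 0.00118).

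Of 26 matrix proteases and inhibitors 8 fell and 3 rose (42.3%, where 10.1% of all genes passed). Adamts12, a secreted metalloprotease, had the smallest adjusted p of the named genes. It was measured at 9.30, 9.09, 9.08 and 9.61 in the W4 mice and at 7.74, 7.70, 7.72 and 7.59 in the W12 mice. The 4 W12 values lay close together, well under the lowest W4 value, and the change was -1.58 (SE 0.14, adjusted p = 6.8e-06), a factor of 2.98. Adamts1 and Adamts9, which cleave large proteoglycans, both changed by -1.09 (adjusted p = 0.0011 and 0.000409). Mmp16, a membrane-bound metalloprotease, moved the other way, from 7.74, 7.61, 7.31 and 6.95 to 8.26, 8.12, 8.10 and 7.78 (log2 change 0.67, adjusted p = 0.00965), with W12 mouse 4 only just over the highest W4 mouse.

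**Figure D3:**
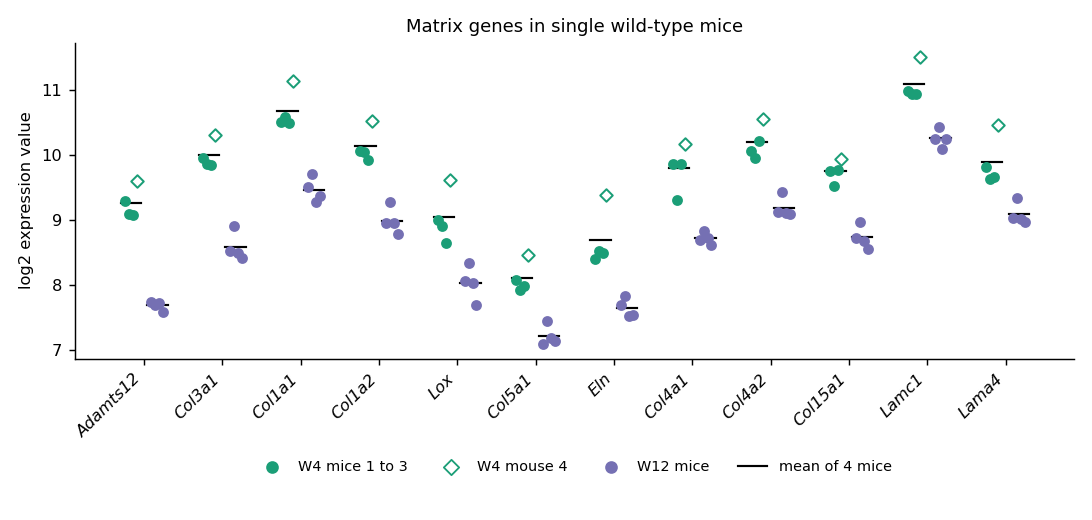
Log2 level (vertical) of 12 matrix genes in each wild-type mouse at W4 (green, open diamond for W4 mouse 4) and W12 (purple), with a line at the mean of 4 mice. Every W12 mouse lies under every W4 mouse, and W4 mouse 4 is the highest W4 mouse in each gene.

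Vessel genes fell in part. Of 16 endothelial markers 5 fell and 0 rose (31.2%, where 10.1% of all genes passed), with a median of -0.23. The 5 became 3 without W4 mouse 4 or W12 mouse 3. The junction genes Pecam1 and Cdh5 changed by -0.40 (adjusted p = 0.00173) and -0.41 (0.0031). Cdh5, VE-cadherin, was measured at 12.36, 12.20, 12.28 and 12.45 in the W4 mice and at 11.95, 11.98, 11.79 and 11.93 in the W12 mice, without overlap. Of 30 genes of angiogenesis 7 fell and 2 rose, a total of 9 that was 4 without W4 mouse 4 and 5 without W12 mouse 3. Aplnr, the apelin receptor of sprouting endothelium, read 11.26, 10.85, 10.88 and 11.35 at W4 and 10.23, 10.23, 9.83 and 10.27 at W12 (log2 change -0.95, adjusted p = 0.00739), with W12 mouse 3 lowest. Angpt2, the angiopoietin that loosens vessels, changed by -0.71 (adjusted p = 0.00223). Pgf, placental growth factor, a growth factor of the VEGF family, went the other way. It was measured at 10.01, 9.52, 9.22 and 9.80 in the W4 mice and at 10.54, 10.96, 10.60 and 10.99 in the W12 mice, all W12 mice over all W4 mice, and rose by a factor of 2.2 (log2 change 1.13, SE 0.15, adjusted p = 0.000229).

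Genes of thyroid hormone synthesis had a small median change of -0.06, but a larger share of them passed than of all genes. Of 16 measured members 3 fell and 1 rose, where 10.1% of all genes passed. An unadjusted p under 0.05 was found for 6 of the 16, where 23.8% of all genes had one. The 4 calls became 1 without W4 mouse 4 and 2 without W12 mouse 1 or W12 mouse 3. The gene that passed whichever mouse was left out was Duoxa1, the maturation factor of dual oxidase 1. It was measured at 8.93, 8.72, 8.94 and 9.59 in the W4 mice and at 8.31, 8.44, 8.28 and 8.28 in the W12 mice, with no overlap and a W4 mouse 4 well over the rest (log2 change -0.72, SE 0.13, adjusted p = 0.00216). Its mean was 9.60 ± 0.15 at W2, 9.04 ± 0.38 at W4 and 8.33 ± 0.07 at W12 (SD, n = 4), and the change from W2 to W4 did not pass (-0.56, adjusted p = 0.0855). Duox1, the oxidase itself, stood at 6.74, 6.57, 7.43 and 7.71 in the W4 mice and at 6.42, 6.30, 6.65 and 6.54 in the W12 mice. W4 mice 3 and 4 were the 2 highest, while the highest W12 mouse overlapped the lowest W4 mouse, and the change of -0.64 (adjusted p = 0.0258) had an adjusted p of 0.0815 without W4 mouse 3, 0.112 without W4 mouse 4, 0.0573 without W12 mouse 1 and 0.0679 without W12 mouse 2, in a range of 0.00538 to 0.261 over all alternatives. Duoxa2, the maturation factor of dual oxidase 2, rose by 0.40 (adjusted p = 0.0388) with overlapping ages, and its adjusted p was 0.123 without W4 mouse 1, 0.122 without W4 mouse 4, 0.0547 without W12 mouse 2, 0.075 without W12 mouse 3 and 0.144 without W12 mouse 4, in a range of 0.0203 to 0.253. Kcnq1, a potassium channel of the basolateral membrane, changed by -0.28 (0.0301), and its adjusted p was 0.129 without W4 mouse 4, 0.0869 without W12 mouse 1 and 0.0798 without W12 mouse 3, in a range of 0.0183 to 0.176.

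The other 12 genes of hormone synthesis did not pass. Tg, thyroglobulin, stood at 13.99, 13.96, 14.01 and 14.02 in the W4 mice and at 13.94, 13.93, 13.94 and 13.97 in the W12 mice (log2 change -0.05, adjusted p = 0.465), near the highest value of the whole table, 14.03. Slc5a5, the sodium/iodide symporter, read 10.53, 11.35, 11.58 and 11.54 at W4 and 10.90, 11.72, 11.41 and 11.76 at W12, with W4 mouse 1 and W12 mouse 1 the lowest of their ages and the ages overlapping (log2 change 0.20, SE 0.21, adjusted p = 0.643). Tshr, the TSH receptor, changed by -0.21 (SE 0.09, adjusted p = 0.134, and 0.0454 without W12 mouse 2, in a range of 0.0454 to 0.427). Dio1, a deiodinase that makes the active hormone, changed by 0.19 (SE 0.07, adjusted p = 0.096), and Slc26a4, the apical anion transporter pendrin, by -0.20 (0.12, 0.341).

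Of 10 thyrocyte transcription factors 1 rose and 1 fell (20%, where 10.1% of all genes passed), and 3 had an unadjusted limma p under 0.05, where 23.8% of all genes did. Pax8, Nkx2-1, Foxe1 and Hhex, which together define the thyrocyte, changed by 0.10 (SE 0.07), 0.14 (0.07), 0.02 (0.06) and -0.08 (0.10), with adjusted p between 0.254 and 0.912. Tbx1, known as a factor of pharyngeal development, was measured at 8.06, 8.70, 8.37 and 8.09 in the W4 mice and at 9.04, 8.98, 9.21 and 8.65 in the W12 mice. W12 mouse 4 lay under the highest W4 mouse, and the change was 0.66 (adjusted p = 0.00935, 0.0605 without all arrays with thymocyte transcripts, in a range of 0.00395 to 0.11 over all alternatives). Glis3, a factor that the response to TSH needs, changed by -0.35 (adjusted p = 0.0441), which became 0.0635 without W4 mouse 1, 0.115 without W4 mouse 2, 0.0536 without W4 mouse 3, 0.0931 without W4 mouse 4, 0.157 without W12 mouse 3 and 0.122 without W12 mouse 4, in a range of 0.0287 to 0.157 over all alternatives. The 2 calls of the list became 1 in each fit without one of those 6 mice. Of 34 genes of cAMP and TSH receptor signaling 6 fell and 3 rose (26.5%, where 10.1% of all genes passed). The cAMP phosphodiesterase gene Pde4d was among those that fell (-0.47, adjusted p = 0.000994). The 9 calls became 3 without W4 mouse 4 and 5 without W12 mouse 3.

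**Figure D4:**
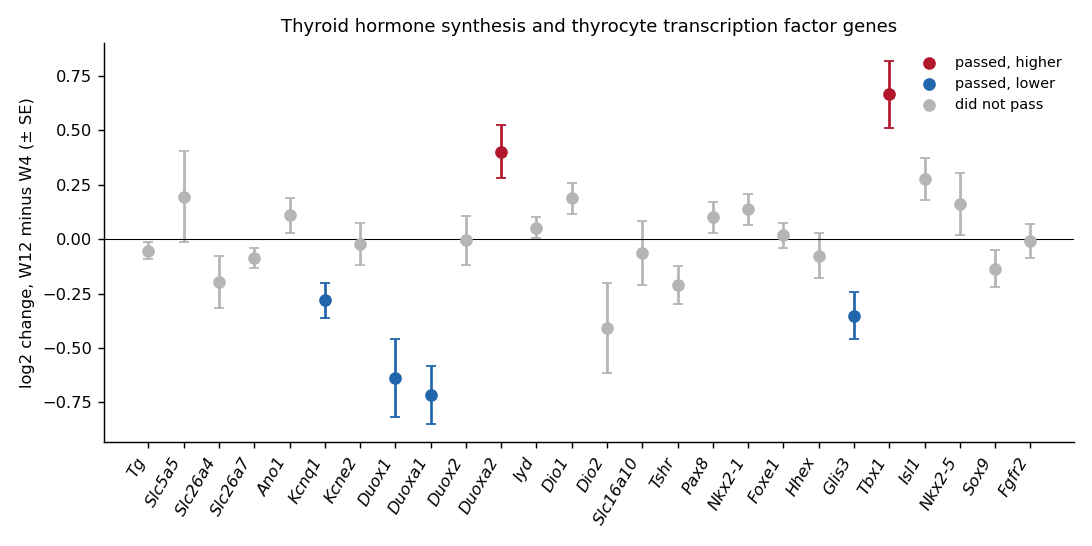
Log2 change from W4 to W12 (vertical, points with bars of 1 standard error) of the 16 measured genes of hormone synthesis and the 10 thyrocyte transcription factors, coloured where the gene passed the test. Duoxa1 lies lowest at -0.72, Tbx1 highest at 0.66, and the genes in grey did not pass.

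Among the genes that rose, the 15 with the largest increase held complement, retinoid, carrier and fat genes. C7, a component of the complement membrane attack complex, was measured at 7.69, 8.35, 7.44 and 7.11 in the W4 mice and at 9.69, 9.50, 9.67 and 9.18 in the W12 mice. All W12 mice lay over all W4 mice, W4 mouse 4 was lowest, and the rise was by a factor of 3.64 (log2 change 1.86, SE 0.23, adjusted p = 0.000168). The mean of C7 at W2 was 6.68 and its change from W2 to W4 was 0.97 (adjusted p = 0.0816). Pon1, the HDL-bound paraoxonase, read 9.73, 9.51, 8.93 and 8.79 at W4 and 10.88, 10.74, 10.86 and 10.75 at W12 (log2 change 1.57, adjusted p = 0.00181). Hp, haptoglobin, which binds free hemoglobin, changed by 1.21 (0.00268), and Lrat, the enzyme that stores retinol as ester, by 1.25 (0.00632). Kif5c, a kinesin heavy chain best known from neurons, was measured at 6.97, 6.95, 6.94 and 6.54 in the W4 mice and at 8.395, 8.14, 8.34 and 7.71 in the W12 mice, with W4 mouse 4 and W12 mouse 4 the lowest of their ages and no overlap (log2 change 1.30, SE 0.13, adjusted p = 2.29e-05). Nrg1, the ErbB receptor ligand neuregulin, stood at 7.58, 7.004, 7.25 and 7.47 in the W4 mice and at 8.39, 9.22, 8.18 and 8.47 in the W12 mice, with W12 mouse 2 highest (log2 change 1.24, adjusted p = 0.000391).

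Vat1l (1.38, adjusted p = 0.00052), Pla2g2d, a secreted phospholipase (1.56, 0.00398), Tmem45b (1.22, 0.00494) and Aqp6, an aquaporin (1.13, 0.00179), rose as well, and 12 of the 15 passed whichever mouse was left out. The exceptions were Inmt, an amine methyltransferase, Cyp2e1, a cytochrome P450, and Serpina3n, a protease inhibitor. Inmt changed by 1.71 (adjusted p = 0.018), which became 0.0694 without W4 mouse 4, 0.0519 without W12 mouse 3 and 0.0511 without W12 mouse 4, in a range of 0.00898 to 0.0839 over all alternatives. Cyp2e1 changed by 1.57 (adjusted p = 0.0313), which became 0.0515 without W4 mouse 1, 0.0631 without W4 mouse 3, 0.0931 without W4 mouse 4, 0.0536 without W12 mouse 1, 0.0628 without W12 mouse 2, 0.0695 without W12 mouse 3 and 0.065 without W12 mouse 4, in a range of 0.00326 to 0.0977. Serpina3n changed by 1.13 (adjusted p = 0.0465), which became 0.0997 without W4 mouse 1, 0.0957 without W4 mouse 3, 0.0997 without W4 mouse 4, 0.0583 without W12 mouse 1, 0.0897 without W12 mouse 2, 0.0926 without W12 mouse 3 and 0.106 without W12 mouse 4, in a range of 0.00712 to 0.106.

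Adipocyte markers rose in part as well. Of 10 adipocyte markers 4 rose and 0 fell, beside a background of 5.42% of genes higher, with a median of 0.48 and 9 positive changes, and the 4 became 2 without W4 mouse 4 or W12 mouse 3 and 8 when the 8 wild-type arrays were fitted alone. The mean over the 10 markers was 10.38 to 10.51 at W4 and 10.92 to 11.19 at W12, so that the ages did not overlap. Retn, the adipocyte hormone resistin in mice, was measured at 10.27, 10.25, 10.11 and 9.54 in the W4 mice and at 11.25, 11.61, 11.65 and 11.49 in the W12 mice, without overlap (log2 change 1.46, SE 0.29, adjusted p = 0.00336). Lep, leptin, stood at 6.03, 6.46, 6.20 and 7.06 in the W4 mice and at 8.23, 7.01, 8.94 and 8.70 in the W12 mice. W12 mouse 2 lay just under W4 mouse 4, the other 3 W12 mice were far over all W4 mice, and the change was 1.78 (adjusted p = 0.00519). Cidec, a lipid droplet protein, changed by 0.85 (adjusted p = 0.02, 0.0514 without W4 mouse 4 and 0.0567 without W12 mouse 3, in a range of 0.00326 to 0.0567 over all alternatives). Adipoq, adiponectin, the marker that defines the cells, had a change of 0.64 with an adjusted p of 0.102. Of 10 brown fat markers 0 passed limma's test and 0 had an unadjusted p under 0.05, where 23.8% of all genes did, and 8 of the 10 changes were negative, with a median of -0.31 that was -0.06 without W4 mouse 4. The part of attached fat in the changes of C7, Retn and the other risers was not tested.

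Clock genes rose in part. Of 19 measured members 6 rose and 0 fell (31.6%, where 10.1% of all genes passed), with a median of 0.23. The count of 6 became 2 without W4 mouse 2, 3 without W4 mouse 4 and 2 without W12 mouse 4. Nr1d1, the repressor REV-ERB alpha, was measured at 12.25, 12.20, 12.31 and 12.19 in the W4 mice and at 12.65, 12.73, 12.81 and 12.78 in the W12 mice, without overlap (log2 change 0.51, adjusted p = 0.00924), and had risen from W2 to W4 too (0.95, adjusted p = 0.00167). Bhlhe41, the repressor DEC2, stood at 8.84, 8.89, 9.20 and 8.97 in the W4 mice and at 9.89, 9.85, 10.01 and 10.52 in the W12 mice, with W12 mouse 4 highest (log2 change 1.09, SE 0.16, adjusted p = 0.000454). Dbp, a transcription factor driven by the clock, changed by 0.82 (adjusted p = 0.0348), which became 0.0718 without W4 mouse 1, 0.0558 without W4 mouse 2, 0.113 without W4 mouse 4, 0.0975 without W12 mouse 3 and 0.113 without W12 mouse 4, in a range of 0.0238 to 0.147 over all alternatives. Mice were kept under a light and dark cycle of 12 hours each, and the sources used here give no hour of collection. The E-box letters CACGTG occurred in 6 of 22 promoters of the list (27.3%) and in 6.02% of all promoters.

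Immediate-early genes fell in 4 of 24 cases and rose in 0 (16.7%, where 10.1% of all genes passed). Nr4a3, an orphan nuclear receptor induced by many stimuli, was measured at 8.67, 9.45, 9.39 and 8.45 in the W4 mice and at 7.27, 7.31, 6.66 and 7.62 in the W12 mice. The ages did not overlap, W4 mice 2 and 3 were highest and W12 mouse 3 lowest, and the fall was by a factor of 3.43 (log2 change -1.78, SE 0.28, adjusted p = 0.000652). Its relative Nr4a2 changed by -0.42 (adjusted p = 0.0108) and the shear-responsive factor gene Klf2 by -0.49 (0.00216).

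Growth regulators of early life changed in few members. Of 28 imprinted growth genes 3 fell and 1 rose, a share of 14.3% near the 10.1% of all genes that passed. The 4 calls became 2 without W4 mouse 3, W4 mouse 4 or W12 mouse 3. Zim1, an imprinted zinc finger gene, was measured at 7.85, 7.88, 7.27 and 8.77 in the W4 mice and at 6.22, 6.49, 6.21 and 6.33 in the W12 mice, W4 mouse 4 highest and all W12 mice lowest (log2 change -1.63, SE 0.28, adjusted p = 0.00114). Its mean was 8.88 ± 0.52 at W2, 7.94 ± 0.62 at W4 and 6.31 ± 0.13 at W12. Nnat, neuronatin, went the other way (0.68, adjusted p = 0.00941). Igf2bp1, the fetal RNA-binding protein that steers Igf2 mRNA, was the 1 of 16 fetal growth regulators that fell (6.25%). It changed by -0.52 (adjusted p = 0.00407) and read 8.21, 7.91, 7.96 and 8.22 at W4 and 7.57, 7.49, 7.60 and 7.52 at W12. Of 38 Wnt genes 5 fell and 3 rose (21.1%), led by the secreted Wnt modulator Dkk3 (-0.72, 0.000477) and the co-receptor Lrp6 (-0.28, 0.00124).

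Of 5 measured red cell genes 1 fell and 0 rose, beside a background of 4.7% of genes lower. For 4 the W12 values lay under all W4 values, where this held for 7.99% of all genes. The count of 1 became 4 when the 8 wild-type arrays were fitted alone, and 0 without W4 mouse 4 or W12 mouse 1. Hbb-b1, a beta globin whose probes can also take up near-identical globin copies, was measured at 8.38, 7.996, 7.89 and 8.85 in the W4 mice and at 6.29, 6.94, 6.82 and 6.76 in the W12 mice, without overlap. Its change of -1.58 (adjusted p = 0.023) had an adjusted p of 0.0877 without W4 mouse 4 and 0.0631 without W12 mouse 1, in a range of 0.00955 to 0.0877 over all alternatives. Alas2, the erythroid enzyme of heme synthesis, had a change of -1.05 (adjusted p = 0.0981), and the mean over the 5 markers was 7.32 to 7.74 at W4 and 6.53 to 6.76 at W12. Dcpp3, of a salivary gland family with near-identical copies, read 7.95, 7.56, 8.69 and 11.75 at W4 and 7.54, 7.32, 7.50 and 6.88 at W12. Its change of -1.68 (adjusted p = 0.0491) had an adjusted p of 0.0657 without W4 mouse 3, 0.0559 without W4 mouse 4, 0.0714 without W12 mouse 1, 0.0829 without W12 mouse 2, 0.0844 without W12 mouse 3 and 0.122 without W12 mouse 4, in a range of 0.0152 to 0.237. Among the 8 mice, W4 mouse 4 had the highest mean over salivary markers as well, 6.92 beside 5.95 to 6.40 in the other 7 mice. That mean was 6.80 to 7.17 in the wild-type W2 mice and 7.61 to 7.98 in the knockout mice of all ages.

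Immune genes moved both ways. Of 14 genes of MHC class II presentation 4 rose and 1 fell (35.7%, where 10.1% of all genes passed). The total of 5 was 2 without W4 mouse 2, W4 mouse 3 or W12 mouse 2 and 1 without W4 mouse 4, W12 mouse 3 or W12 mouse 4. Cd74, the invariant chain, was measured at 13.04, 12.96, 12.96 and 12.91 in the W4 mice and at 13.23, 13.24, 13.22 and 13.27 in the W12 mice, without overlap (log2 change 0.27, adjusted p = 0.00995). H2-Q7, a class I gene with near-identical copies, changed by 0.87 (0.00726). Of 41 interferon-response genes 6 fell and 3 rose, and the 9 became 5 without W4 mouse 2 or W12 mouse 1. Their median of -0.17 was -0.04 without W4 mouse 1. The list mean was 8.54 in W4 mouse 1, 8.25 to 8.34 in the other W4 mice and 8.22 to 8.31 at W12. Mx2, Parp14 and Xaf1 changed by -0.51 (adjusted p = 0.0116), -0.50 (0.00853) and -0.49 (0.00303), and Ifi27l2a by 1.04 (0.00565). Of 15 macrophage markers 1 rose and 2 fell, a total of 3 that was 1 without W4 mouse 4, and the means over the macrophage, T cell and B cell markers overlapped between the ages. Vsig4, the complement receptor of resident macrophages, rose (0.77, adjusted p = 0.00939).

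The lists of oxidative phosphorylation, fatty acid oxidation, cholesterol synthesis and thyroid hormone response had medians between -0.05 and 0.07, where that of all genes was 0.01. Of 60 genes of oxidative phosphorylation 1 rose and 0 fell (1.67%, where 10.1% of all genes passed). The gene that rose was Sdhc, a subunit of complex II (0.24, adjusted p = 0.0141). Its adjusted p was 0.054 without W4 mouse 4 and 0.0502 without W12 mouse 3, in a range of 0.00604 to 0.12 over all alternatives. Of 25 genes of fatty acid oxidation, 22 of cholesterol synthesis and 19 thyroid hormone response genes 0 passed limma's test, and 1, 5 and 4 had an unadjusted p under 0.05, where 23.8% of all genes did. The list of 18 glucocorticoid response genes, which holds the receptor gene Nr3c1 beside genes that glucocorticoids induce, had a median of -0.22, with 13 negative changes. Of these 18, 9 had an unadjusted p under 0.05, where 23.8% of all genes did. With limma 1 rose and 1 fell (11.1%). Hsd11b1, the enzyme that reactivates glucocorticoids, changed by 0.31 (adjusted p = 0.0456, range 0.0168 to 0.186 over all alternatives), and Nr3c1, the glucocorticoid receptor, by -0.21 (0.0466, range 0.0261 to 0.247). The total of 2 was 1 without W4 mouse 1, W4 mouse 2 or W12 mouse 4, 0 without W4 mouse 4, W12 mouse 2 or W12 mouse 3, and 5 with trended and robust variance. Of 33 antioxidant genes 3 rose and 1 fell (12.1%), a total of 4 that was 2 without W4 mouse 4. The selenoprotein gene Selenow, at 11.62, 11.56, 11.56 and 11.34 in the W4 mice and 11.91, 11.90, 12.06 and 11.94 in the W12 mice, rose by 0.43 (adjusted p = 0.000875).

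Fewer genes passed in the earlier interval. From W2 to W4, measured with the same W4 mice, 29 genes passed (0.125%), 15 of them higher (0.0647%) and 14 lower (0.0604%), and 2343 had an unadjusted p under 0.05 (10.1%). The 29 became 6 in the 12 wild-type arrays alone, 101 with trended and robust variance and 164 with array weights, where the same 3 settings gave 1513, 2690 and 2585 genes from W4 to W12. Of the 64 mitotic genes 0 passed there with limma, 0 at an unadjusted p under 0.05, and their median change was -0.05. Vessel genes fell in that interval as well. Of 16 endothelial markers 1 passed as lower and 13 had an unadjusted limma p under 0.05, with a median of -0.26, beside -0.23 from W4 to W12. Of 30 angiogenesis genes 0 passed and 17 had an unadjusted limma p under 0.05, with a median of -0.24, beside -0.15. Col3a1 changed by -0.44 from W2 to W4 (adjusted p = 0.314) and by -1.41 from W4 to W12. Eln changed by -1.05 (adjusted p = 0.0624) and then by -1.05, and Adamts12 by -0.62 (0.0742) and then by -1.58. The intervals differ in length and share the W4 mice, so their changes are given side by side only.

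Mice without Xb130, born hypothyroid, were compared over the same ages, and share no array with the wild type. In the knockout 1008 genes changed (4.35%), of which 571 were higher (2.46%) and 437 lower (1.88%), and 20.2% of genes had an unadjusted p under 0.05. Of the 1257 genes higher in the wild type 114 were also called higher in the knockout (9.069% of the wild-type list and 19.96% of the knockout list), and of the 1090 lower 155 were called lower (14.22% and 35.47%). The sign was shared by 1011 of the 1257 and 898 of the 1090, and the median knockout change was 0.12 and -0.15 where the wild-type medians were 0.37 and -0.35. The genes were chosen by their wild-type change, which by itself favours larger medians in the wild type. The difference between the age changes passed its own test for 232 genes (1%, limma interaction), in 136 the knockout change lying higher (0.587%) and in 96 lower (0.414%). Of the 232, 117 had changed in the wild type. The tested difference contains the wild-type change with its sign reversed, so this overlap is partly built in and is no result of its own. The 232 became 140 without W4 mouse 2, 134 without W4 mouse 4, 145 without W12 mouse 1 and 121 without W12 mouse 3 of the wild type, and 138, 132 and 118 without knockout W4 mice 1, 2 and 4 and 133 and 102 without knockout W12 mice 1 and 2. Thymocyte marker means were over 6.5 in 6 of the 12 knockout arrays, among them 3 of the 8 at W4 and W12, at 8.04 to 9.70, and their part in these differences was not tested.

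Collagen genes fell in both genotypes. Col3a1 changed by -0.99 in the knockout (adjusted p = 0.00161), Col1a1 by -0.93 (0.00438) and Col1a2 by -0.89 (0.00354). In the knockout 8 of the 32 genes of the list fell and 0 rose, where 1.88% of all genes fell. Adamts12 changed by -0.78 (0.00326), Zim1 by -1.58 (0.0026) and Lrat by 1.53 (0.00305), and for none of these 6 genes did the difference between genotypes pass, with adjusted p of 0.0574 for Adamts12 and larger for the others. Mitotic genes had a median knockout change of -0.16, with 0 of 64 past limma's test and 0 at an unadjusted p under 0.05. The difference between genotypes passed for 0 of them too, with 24 of 64 at an unadjusted p under 0.05, where 14.3% of all genes had one, and for Ccna2 it was 2.06 (SE 0.67, adjusted p = 0.144).

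Other named genes did differ between the genotypes. Angpt2 changed by -0.71 in the wild type and 0.46 in the knockout (difference 1.17, adjusted p = 0.00533). Kif5c changed by 1.30 in the wild type and 0.37 in the knockout (difference -0.93, adjusted p = 0.0166), Nrg1 by 1.24 in the wild type and 0.18 in the knockout (-1.06, 0.0475) and Bhlhe41 by 1.09 in the wild type and 0.13 in the knockout (-0.97, 0.0471). Prelp changed by -0.57 in the wild type and 0.07 in the knockout (0.64, 0.00945). Slc26a4 changed by -0.20 in the wild type and rose by 0.64 in the knockout (adjusted p = 0.00416), with a difference of 0.84 (adjusted p = 0.0189).

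**Figure D5:**
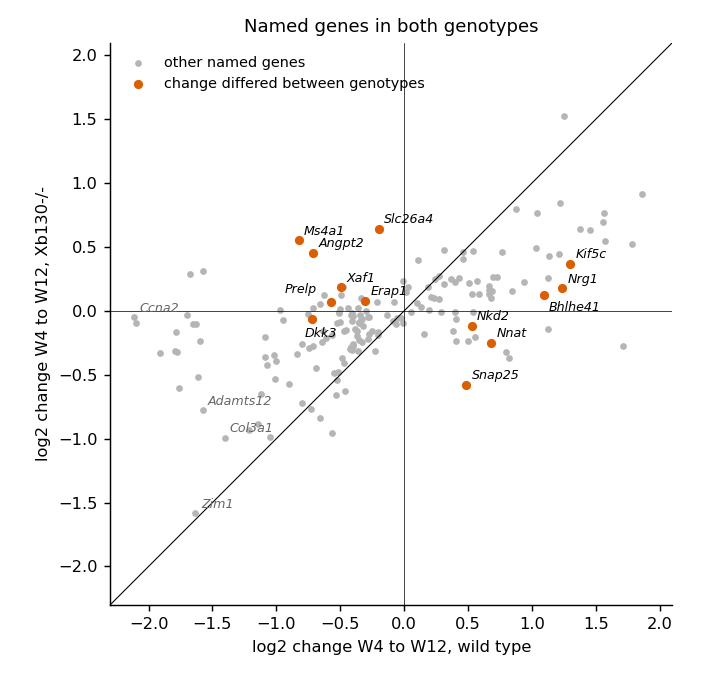
Log2 change from W4 to W12 in the wild type (horizontal) and in the knockout (vertical) for named genes, with the line of equal change. Orange points are the 13 genes whose change differed between genotypes, Col3a1, Adamts12 and Zim1 lie low on both axes, and Ccna2 lies at -2.11 on the wild-type axis and at -0.05 on the knockout axis.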

How the data were processed

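The thyroid glands of 24 male mice, 4 per genotype and age, were each measured on 1 array. The authors deposited log2 values per probe set, made with the oligo package by robust multi-array averaging (RMA), with quantile normalization over all 24 arrays and median polish. That the scale is log2 follows from RMA and the range of the values, 2.02 to 14.03. Tool versions are not given in the sources used here. Tests covered the 23185 of 25206 probe sets with a gene symbol in the platform annotation. Arrays give no read depth, and 4 mice per group limit the precision.

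A mean per group was fitted over all 24 arrays with limma 3.58.1 in R 4.3.3 (18 residual and 2.85 prior degrees of freedom), with a threshold of 0.05 on the Benjamini-Hochberg adjusted p. The code was tested on simulated data. An exact two-sided permutation test of 4 mice against 4 cannot go under p = 0.0286. Alternatives were other sets of arrays, variance models, weights, filters, normalizations and thresholds, and leaving out each mouse.

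The comparison, the lists and the markers were chosen with earlier results of these data known, and lists have no test of their own. Named genes were the 15 largest increases and 15 largest decreases among called genes whose ages did not overlap, all members of the hormone synthesis and thyrocyte factor lists, up to 5 called members of each list in its main direction and 1 in the other, and Afap1l2. Predicted genes and small RNAs were skipped, of which 1 rose as much as the 15 named. Adipoq and Alas2 were named after their values were seen. Promoters are those of RefSeq on GRCm38.p6, searched with Python 3.11.15.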

Additional observations from a re-analysis of the deposited data

Results flagged for a closer look

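Of 476 groups of 4 mice that were checked (the named genes at each age and the list means), 27 held a mouse whose gap to the next mouse exceeded Dixon's critical share of the group's range, where chance gives about 1 in 20 groups, or 23.8. In 13 of the 27 the mouse was W4 mouse 4. It was the highest W4 mouse for Adcy3 at 9.27, Col1a1 at 11.14, Eln at 9.39, Fbln2 at 9.96, Kcnq1 at 8.92, Lamc1 at 11.50 and Tekt1, a gene of motile cilia, at 11.19, and the lowest for Ccl11 at 9.09, Kif5c at 6.54 and Mx2 at 5.55. Its means over the fibrillar collagen list (9.03), the steroid receptor list (8.12) and the thymocyte markers (6.64) stood apart as the highest.

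Other W4 mice stood apart in few places. W4 mouse 3 differed for Cd86 at 7.04, and W4 mouse 1 for Oasl2 at 10.98 and in its means over the Wnt list (7.95), the glucocorticoid list (10.39) and the cartilage markers (6.73). Of the W12 mice, mouse 1 stood apart for Aqp5 at 10.79, mouse 2 for Col4a2 at 9.43, mouse 3 for Aplnr at 9.83 and Xaf1 at 8.79, and mouse 4 for Fbln1 at 9.80 and Thbs2 at 8.07. W12 mouse 2 also stood apart in its means over the basement membrane list (9.24), the MHC class II list (9.16) and the chemokine list (7.65).

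For 13 of the 181 named genes the change from W4 to W12 differed between the genotypes by the limma interaction test, given as knockout change minus wild-type change. The test passed for 1% of all genes, and most named genes were chosen by the wild-type change that it contains. The difference was positive for Angpt2 (1.17, adjusted p = 0.00533), Dkk3 (0.66, 0.0442), the peptide trimming enzyme gene Erap1 (0.38, 0.0364), the B cell gene Ms4a1 (1.38, 0.0471), Prelp (0.64, 0.00945), Slc26a4 (0.84, 0.0189) and Xaf1 (0.68, 0.0186). It was negative for Bhlhe41 (-0.97, 0.0471), Kif5c (-0.93, 0.0166), the Wnt inhibitor gene Nkd2 (-0.65, 0.0362), Nnat (-0.93, 0.0482), Nrg1 (-1.06, 0.0475) and the synaptic gene Snap25 (-1.06, 0.0132).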

How the results depend on the processing

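No paired analysis was possible because the labels carry no replicate numbers. The 2347 calls (1257 higher, 1090 lower) became 1483 (736 and 747) in the 8 wild-type arrays alone, 1513 (794 and 719) in the 12 wild-type arrays and 387 (187 and 200) with a change of at least 1.5-fold. Leaving out each of the 8 mice gave 1221 to 2030 calls, 598 to 1143 higher and 623 to 960 lower. Settings chosen after seeing the data left out every array with thymocyte transcripts (984 calls, 492 higher and 492 lower) or used the 8 wild-type arrays without W4 mouse 4 (677, 300 and 377). Trended variance, array weights, the filter on dim genes, all probe sets and both normalizations gave 2077 to 2951. The 232 genes that differed between genotypes were 102 to 290 over the 16 left-out mice. The 29 genes that changed from W2 to W4 were 6 in the 12 wild-type arrays, 101 with trended and robust variance and 164 with array weights, all 3 added after seeing the data. Of the 160 named genes that passed, 80 passed whichever mouse was left out, 67 of these also without all arrays with thymocyte transcripts, and 89 passed without W4 mouse 4. Genes named in the text that passed whichever mouse was left out, but had an adjusted p over the threshold in another setting, were Cd74 (largest adjusted p 0.0805, smallest 0.00264), H2-Q7 (largest adjusted p 0.0646, smallest 0.00473), Lama4 (largest adjusted p 0.068, smallest 0.00535), Lrp6 (largest adjusted p 0.0511, smallest 0.000172), Mmp16 (largest adjusted p 0.0909, smallest 0.00513), Nnat (largest adjusted p 0.0729, smallest 0.00452), Nr1d1 (largest adjusted p 0.0529, smallest 0.00574), Nr4a2 (largest adjusted p 0.0601, smallest 0.00497), Pecam1 (largest adjusted p 0.0578, smallest 0.000393), Pla2g2d (largest adjusted p 0.0693, smallest 0.00249) and Tbx1 (largest adjusted p 0.11, smallest 0.00395). Among the named genes, only some that had not passed changed sign: leaving out single mice moved Afap1l2 over -0.058 to 0.11, Duox2 over -0.13 to 0.055, Fgfr2 over -0.042 to 0.036, Foxe1 over -0.023 to 0.064, Hhex over -0.14 to 0.015, Kcne2 over -0.067 to 0.015 and Slc5a5 over -0.045 to 0.38. Without the arrays with thymocyte transcripts, in all arrays or the wild type, Afap1l2 was at -0.058 and Foxe1 at -0.0021, and Foxe1 was at -0.011 with arrays shifted to one median. Quantile normalization over all 24 arrays was kept, and 4 mice against 4 limit the precision.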

Other observations

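C cells, which make calcitonin, lie between the follicles. Of 10 of their markers 0 passed limma's test in the wild type and 2 had an unadjusted p under 0.05, where 23.8% of all genes did, with changes of -0.23 for Chgb, -0.16 for Scg2, -0.07 for Scg3, all of the secretory granule, and -0.28 for the prohormone convertase gene Pcsk1. In the knockout 6 of the 10 fell, where 1.88% of all genes did. The change differed between genotypes for the 4 named genes, by -0.92 (adjusted p = 0.0267), -0.59 (0.0275), -0.996 (0.00087) and -1.03 (0.00087). These genes and Slc34a2, a sodium/phosphate cotransporter gene, were chosen after their values were seen. Slc34a2 changed by -1.46 in the wild type (adjusted p = 0.00236) and by 0.91 in the knockout (difference 2.37, adjusted p = 0.00611).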
